A study of Rattus norvegicus with 8 samples.

Results

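The question here was whether testosterone changed the liver transcriptome differently when the leptin receptor is defective. All 8 dual-colour arrays of the series entered the comparison, 4 of lean and 4 of obese rats, and for each array feature the log2 ratio of treated over vehicle liver RNA in obese rats was set against that in lean rats. Attention was on genes whose ratios had opposite signs in the genotypes. The lean animals were male Zucker diabetic fatty rats of the genotype fa/+ and the obese animals male rats of the same strain with the genotype fa/fa, all labelled as 12 weeks old. Treated rats of each genotype were injected subcutaneously for 4 weeks with 20 mg/kg of testosterone undecanoate (TU), a long-acting testosterone ester, every 3 days in the first 2 weeks and weekly in the last 2. The other rats of each genotype received vehicle. On every array vehicle RNA carried Cy3 and TU RNA carried Cy5. The lean group is heterozygous and so carries the fa allele too, the labels mention no castration, and they do not say whether an RNA was taken from a single animal or a pool.

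The leptin receptor (Lepr) is a cytokine receptor that activates the kinase JAK2 and the transcription factor STAT3, and its feedback inhibitor is SOCS3. The fa allele is a missense change in the extracellular part of the receptor, and fa/fa rats overeat, become obese and develop fatty liver and high insulin. Androgens act on hepatocytes directly, and indirectly by shaping the pulses of growth hormone that drive STAT5B and the male pattern of liver cytochromes, of which Cyp2c11 is the classic rat example. Lists of leptin, growth hormone, androgen and metabolic genes were therefore examined.

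A response below means the log2 ratio of TU over vehicle on an array after background correction and loess normalization, and a difference means the obese mean minus the lean mean. A feature is a named gene, represented by its brightest probe, or a probe without a gene name. After a filter on background 24060 features were tested, of which 9958 were named genes. The SD of the log2 ratios was 0.15 to 0.25 on 7 arrays and 0.46 on obese replicate 2, which stood apart from the rest. Slide 1, read in scan 1, carried only lean arrays and slide 2, read in scan 2, only obese ones, so genotype, slide and scan cannot be told apart. A dye bias of a probe that is the same on both slides cancels in the difference, but not in the sign of a single response. That matters for genes called opposite in sign, since a constant bias moves both responses. Bright features lay above 0 after loess. Median lean and obese responses were 0.24 and 0.25 at a mean log2 level of both channels of 16 or more. They were 0.076 and 0.14 between 15 and 16. Signs of genes at such levels, among them Cyp2c11, Fabp1, Ugt2b and Glud1, are read against 0 below without allowing for this. The fa allele is a point change, so the level of Lepr RNA is no check of the labels.

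No feature passed the threshold for a difference between the genotypes (limma, Benjamini-Hochberg adjusted p under 0.05, 0% of 24060). The smallest adjusted p was 0.231. The unadjusted p was under 0.05 in 2343 features, 9.74% of those tested, with 1424 higher in obese rats (5.92%) and 919 lower (3.82%). Among named genes this share was 9.83%, with 4.84% higher and 4.99% lower, which are the shares to read the counts of listed genes against. The median SE of a difference was 0.11, and the 5th and 95th percentiles of all differences were -0.30 and 0.32. Most differences were therefore of the size of their own error. The count of called features depended on how the ratios were centred. When arrays were centred on their median without loess, the median difference of all features moved from -0.0014 to 0.15, and 781 features passed, 762 of them higher in obese rats and 19 lower. Without obese replicate 2, 2 features passed, both lower, and without obese replicate 3, 1 did.

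Responses in the genotypes were loosely related. The lean and obese mean responses correlated with r = 0.37 across the 24060 features, although features are not independent replicates. Between single arrays the mean r was 0.42 for lean pairs, 0.28 for obese pairs and 0.23 for pairs of a lean and an obese array. The means had opposite signs in 9514 features (39.5%), 5125 of them lower in lean and higher in obese rats with TU (21.3%) and 4389 the other way (18.2%). In 1804 of these the difference was at an unadjusted p under 0.05 (7.5%). Every lean array lay on one side of 0 and every obese array on the other in 311 features (1.29%). Of these, 182 were lower with TU in lean and higher in obese rats (0.756%) and 129 the reverse (0.536%). Among named genes means of opposite sign made up 39.1%, and opposite signs on every array held for 109 of 9958 (1.09%), 48 lean-lower (0.482%) and 61 lean-higher genes (0.613%). For brevity these 109 are called crossing genes here.

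**Figure D1:**
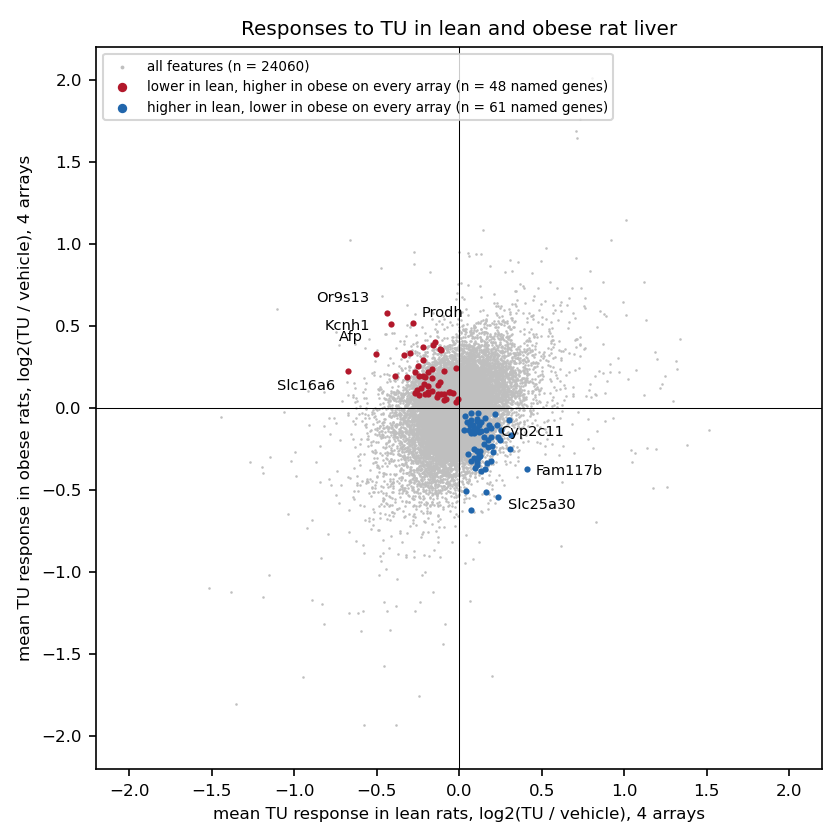
Mean response to TU in lean rats (x axis) against that in obese rats (y axis), both as log2(TU / vehicle) over 4 arrays, for 24060 features (grey). The 48 named genes that were lower in lean and higher in obese rats on every array (red) lie in the upper left and the 61 of the reverse direction (blue) in the lower right, both close to the origin compared with the grey points that respond most.

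The fetal plasma protein Afp, made by liver before birth and kept low in the adult, had the smallest adjusted p for its difference among the 20 genes named here as crossing. Its responses were -0.77, -0.58, -0.40 and -0.26 on lean arrays 1 to 4, and 0.32, 0.52, 0.17 and 0.31 on obese arrays 1 to 4. All 4 lean arrays thus had less Afp RNA with TU than with vehicle and all 4 obese arrays more. The means were -0.50 ± 0.22 in lean and 0.33 ± 0.15 in obese rats (SD, n = 4 each), a difference of 0.84 ± 0.12 (SE) that did not pass across all features (limma adjusted p = 0.276, 0.0418 to 0.739 under other settings). Slc16a6, a monocarboxylate transporter that exports the ketone body beta-hydroxybutyrate from hepatocytes, was at -0.79, -0.88, -0.78 and -0.25 in lean and at 0.33, 0.28, 0.074 and 0.23 in obese rats. The mean was 1.6-fold lower with TU in lean and 1.17-fold higher in obese rats. Its log2 level in obese rats was near background, 6.70 with vehicle and 6.93 with TU, against 8.16 and 7.49 in lean rats. The small obese rise is therefore uncertain. Another probe of the gene gave 0.16 and 0.033 for the lean and obese means, without the opposite signs. Prodh, the mitochondrial enzyme that starts proline breakdown, was at -0.34, -0.29, -0.47 and -0.027 in lean and at 0.12, 0.50, 0.83 and 0.62 in obese rats. Both other probes of Prodh had differences near 0 (-0.0021 and -0.018), so its opposite signs rest on 1 of 3 probes.

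The kidney and liver dicarboxylate carrier Slc13a3 had lean responses of -0.42, -0.12, -0.27 and -0.060 and obese responses of 0.37, 0.85, 0.15 and 0.12. Obese replicate 2 was the farthest from 0. The ribosomal protein gene Rpl38 was at -0.27, -0.37, -0.24 and -0.18 in lean and at 0.32, 0.33, 0.033 and 0.19 in obese rats, and its difference of 0.49 had the smallest SE (0.088) of the 10 lean-lower genes named here. Psmc6, an ATPase of the proteasome, had lean responses of -0.24, -0.34, -0.29 and -0.14, and obese responses of 0.057, 0.52, 0.44 and 0.00044. Its sign on obese replicate 4 thus rests on a value next to 0. Its other probe gave means of -0.31 and 0.27.

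In 4 more lean-lower genes 1 or 2 obese arrays carried the obese mean. Kcnh1, a voltage-gated potassium channel, was at -0.44, -0.51, -0.45 and -0.26 in lean rats and at 0.061, 0.57, 1.27 and 0.15 in obese rats. Tm4sf1, a tetraspan membrane protein, was at -0.15, -0.37, -0.41 and -0.40 in lean rats and at 0.22, 0.99, 0.059 and 0.0082 in obese rats. Lgalsl, a galectin-like protein, was at -0.28, -0.64, -0.23 and -0.040 in lean rats and at 0.16, 0.80, 0.030 and 0.35 in obese rats, and its other probes differed by 0.34 and 0.060. In each of these 3 genes the lowest obese value was under 0.1. The probe assigned to the olfactory receptor gene Or9s13 was at -1.09, -0.16, -0.20 and -0.30 in lean rats and at 1.04, 1.15, 0.12 and 0.011 in obese rats, where lean replicate 1 and obese replicates 1 and 2 stood far from the rest.

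**Figure D2:**
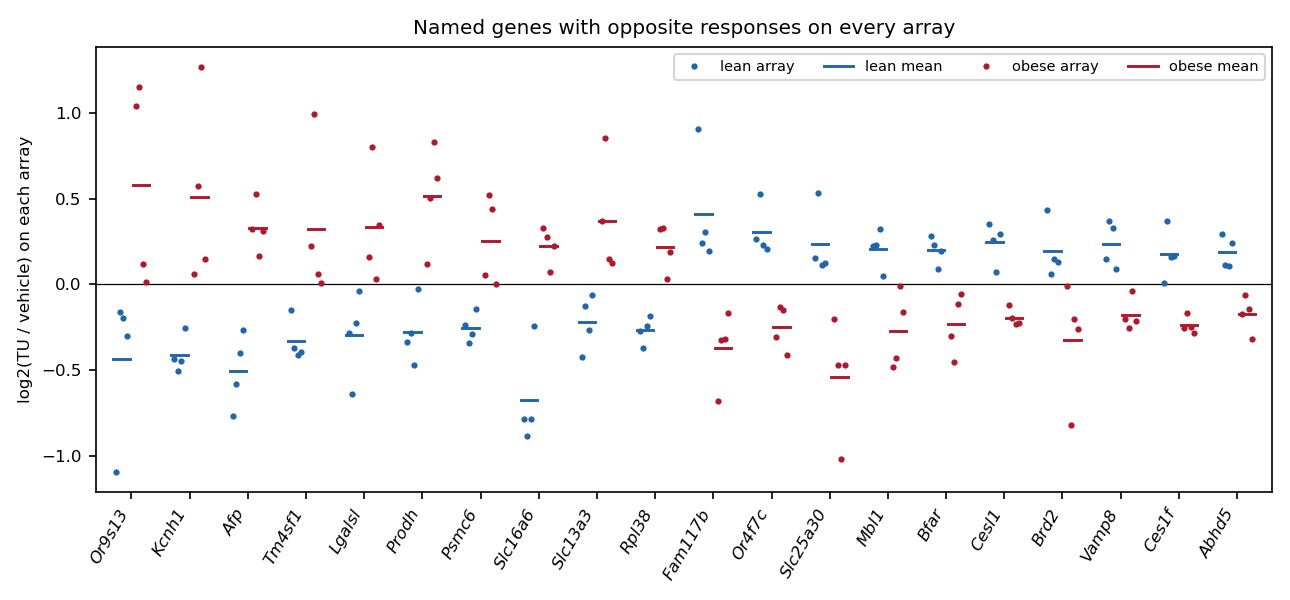
Response to TU on each array, as log2(TU / vehicle), for the 10 named genes with the largest opposite responses in each direction. Points are single arrays of lean (blue) and obese (red) rats and bars are means of 4. All blue and red points lie on opposite sides of 0 by the choice of genes, and several obese points lie within 0.1 of 0.

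The genes that were higher with TU in lean and lower in obese rats included carboxylesterases and a serum lectin. They form no theme, since none of the 33 drug metabolism genes and 14 hepatocyte markers measured had opposite signs on every array. Of named genes 1.09% had them. The carboxylesterases Ces1f and Cesl1 hydrolyse esters of lipids and drugs. Ces1f was at 0.0067, 0.37, 0.16 and 0.17 in lean and at -0.26, -0.16, -0.25 and -0.29 in obese rats. Cesl1 was at 0.35, 0.26, 0.073 and 0.29 in lean and at -0.12, -0.19, -0.23 and -0.23 in obese rats. The obese arrays lay close together in both (SD 0.052 and 0.051), and the differences were -0.42 ± 0.088 and -0.44 ± 0.080 (SE). Mbl1, a serum lectin that activates complement, had lean responses of 0.23, 0.23, 0.32 and 0.052 and obese responses of -0.48, -0.43, -0.0086 and -0.16. Its obese replicate 3 lay next to 0.

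The male-specific cytochrome Cyp2c11, a steroid hydroxylase under growth hormone control, also changed sign on every array. It was at 0.035, 0.21, 0.17 and 0.28 on the lean arrays and at -0.45, -0.11, -0.17 and -0.060 on the obese ones. The means were 0.17 ± 0.10 and -0.20 ± 0.17 (SD, n = 4), so it was 1.13-fold higher and 1.15-fold lower with TU, and the difference of -0.37 ± 0.10 (SE) did not pass (limma adjusted p = 0.423, 0.205 to 0.739 under other settings).

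Vamp8, a vesicle fusion protein, was at 0.15, 0.37, 0.33 and 0.092 in lean and at -0.20, -0.26, -0.038 and -0.22 in obese rats. Abhd5, the coactivator of the triglyceride lipase ATGL, was at 0.29, 0.11, 0.11 and 0.24 and at -0.17, -0.062, -0.14 and -0.32. The mitochondrial carrier Slc25a30 was at 0.15, 0.54, 0.11 and 0.13 and at -0.20, -0.47, -1.02 and -0.47. Of the 10 lean-higher genes named here Slc25a30 had the obese mean farthest from 0 (-0.54). Its mean log2 level of 6.48 was near background, as was that of the lean-lower gene Kcnh1 (6.66). Fam117b was at 0.91, 0.24, 0.31 and 0.20 in lean rats and at -0.68, -0.32, -0.32 and -0.17 in obese rats. It is the only one of the 20 genes whose further probes, here 2, had opposite signs on every array as well, with means of 0.19 and 0.30 in lean rats against -0.13 and -0.14 in obese rats. Bfar, an apoptosis regulator of the endoplasmic reticulum, was at 0.28, 0.23, 0.088 and 0.19 in lean rats and at -0.30, -0.46, -0.12 and -0.054 in obese rats, with other probes at 0.018 and 0.042 in lean against -0.27 and -0.094 in obese rats. The bromodomain protein Brd2 was at 0.43, 0.060, 0.15 and 0.13 in lean rats and at -0.0097, -0.82, -0.20 and -0.26 in obese rats, and its other probe differed by -0.38. The probe assigned to the olfactory receptor gene Or4f7c was at 0.26, 0.53, 0.23 and 0.21 in lean rats and at -0.31, -0.13, -0.15 and -0.41 in obese rats.

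Signs of the lean-higher genes depended on how the arrays were centred. With median centring the differences of Ces1f, Cesl1, Mbl1, Vamp8 and Cyp2c11 were 0.058, 0.027, 0.043, 0.13 and 0.17, above 0 instead of below. Means of opposite sign were found for 14 of the 20 genes and lost by Abhd5, Brd2, Cesl1, Mbl1, Or4f7c and Vamp8. Among the 14, Ces1f had them in the reverse direction, with lean below and obese above 0. The 10 lean-lower genes all kept a difference above 0 under that setting, between 0.95 (Tm4sf1) and 1.44 (Or9s13), and 5 of them (Afp, Prodh, Psmc6, Rpl38 and Slc16a6) then passed, as did Slc25a30 of the lean-higher genes. The direction of change was kept for all 20 genes under each of the other 19 settings, but the size was not. With each array left out in turn the direction could not change, since the genes were chosen for signs that held on every array. The same is true of settings that only weight the arrays or scale their ratios. Those settings are therefore no check of the direction. With the scanner software's processed signals, and equally with the authors' deposited ratios, the difference was 2.27 for Kcnh1, 1.67 for Slc16a6, -2.42 for Slc25a30, -0.74 for Bfar and -0.55 for Abhd5. With the mean of a gene's probes it was 0.26 for Prodh, 0.39 for Slc16a6 and -0.28 for Bfar. With normexp fitted over all spots it was 0.56 for Kcnh1 and -0.50 for Slc25a30.

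Over all 109 crossing genes the responses were small. The median of the smallest absolute response on the 8 arrays was 0.015, 14 genes had every array beyond 0.05, and 5 beyond 0.1. The genotype mean nearer to 0 was at least 0.2 in size in 11 lean-lower and 4 lean-higher genes. In 67 of the 109, obese replicate 2 was the obese array farthest from 0. That array had the widest spread over all features too. Its median absolute response was 0.22, against 0.082 to 0.11 on the other obese arrays. The share over all features was not counted, so the 67 are no trait of crossing genes. Further probes of the same genes bore on how far a sign belongs to a gene. For 30 of the crossing genes 44 other probes passed the filter. Of these, 34 had a difference of the same direction, and 4 had opposite signs on every array.

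Levels by channel set each response against where the gene stood in untreated rats. In vehicle-treated rats Afp was at 12.23 ± 0.25 in lean and 12.06 ± 0.45 in obese liver (normalized log2 level, mean ± SD, n = 4), and with TU at 11.72 ± 0.17 and 12.39 ± 0.36. The genotypes thus stood closer with vehicle than with TU. Prodh went from 14.49 ± 0.19 to 14.21 ± 0.27 in lean and from 13.59 ± 0.52 to 14.11 ± 0.44 in obese liver, where the gap between the genotypes was smaller with TU. Cyp2c11 went from 16.27 ± 0.15 to 16.44 ± 0.064 in lean and from 15.77 ± 0.29 to 15.57 ± 0.13 in obese liver, where the gap was larger. Ces1f likewise moved from 12.74 ± 0.10 to 12.92 ± 0.11 in lean and from 12.26 ± 0.28 to 12.02 ± 0.24 in obese liver. Of the 48 lean-lower genes 37 (77.1%) had a lower vehicle level in obese than in lean rats, against 41.1% of all named genes. Of the 61 lean-higher genes 44 (72.1%) had a higher vehicle level in obese rats, against 58.9%. The vehicle level enters both the response and this gap, so the shares are not independent of how the genes were chosen. The genotype gap was smaller with TU than with vehicle in 28 of 48 (58.3%) and 35 of 61 genes (57.4%), against 52.2% of all named genes. Levels of the genotypes come from different slides.

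**Figure D3:**
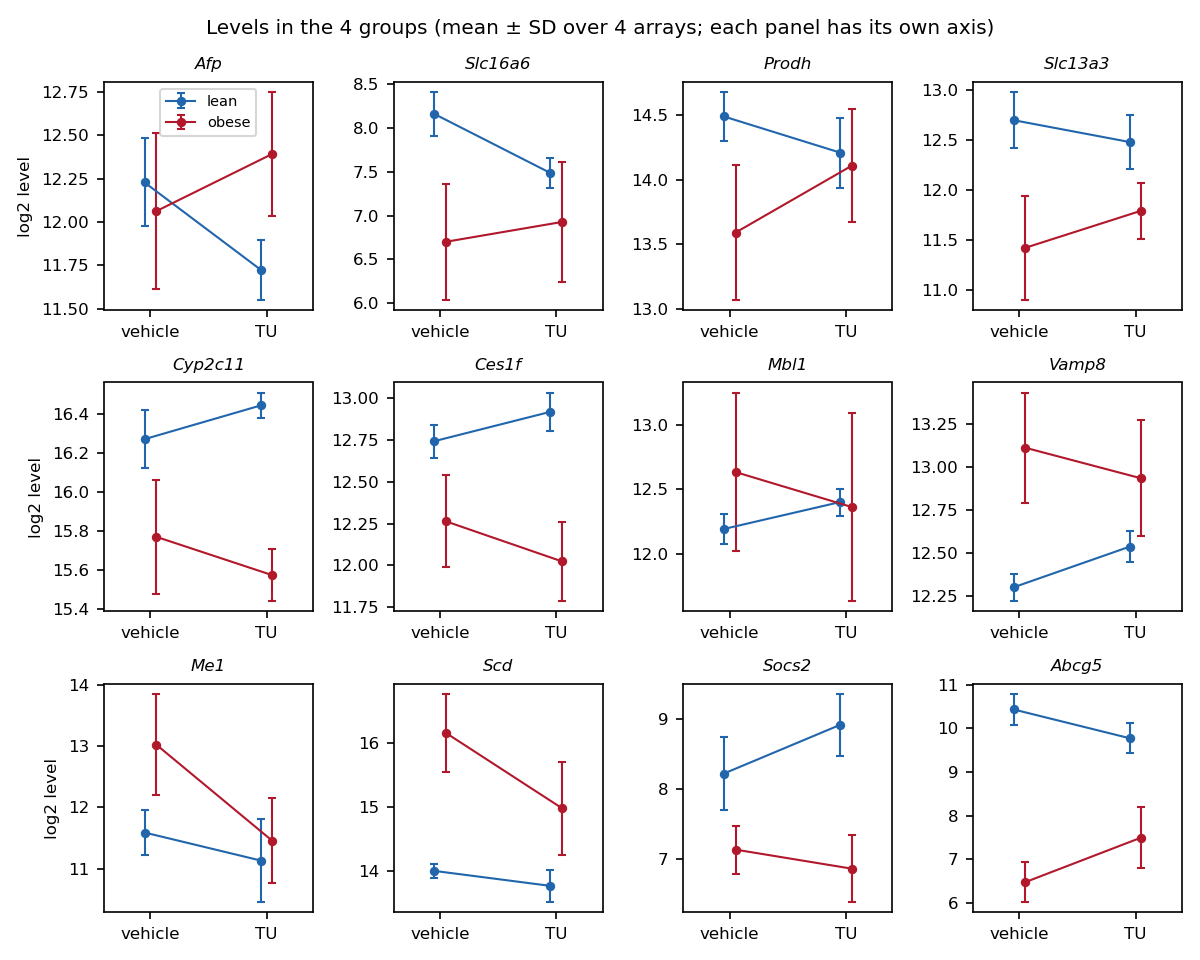
Normalized log2 level with vehicle and with TU (x axis) in lean (blue) and obese (red) liver, mean ± SD over 4 arrays, for 8 crossing genes and 4 genes of metabolism and growth hormone signalling. Lines of Afp, Slc16a6, Prodh and Slc13a3 fall in lean and rise in obese rats, those of Cyp2c11, Ces1f, Mbl1 and Vamp8 do the reverse, and each panel has its own axis.

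Promoters of 3 crossing genes are shown because they hold a match to one of the elements searched and belong to genes described above: the fetal gene Afp (lean-lower), the male cytochrome Cyp2c11 and the esterase Ces1f (both lean-higher). Each is the stretch of 250 bases before the RefSeq start, on the gene's strand of the build GRCr8. Capitals mark AGAACA, a hexamer bound by steroid receptors, and TTCNNNGAA, the element bound by STAT proteins, on either strand.
Afp, chr14:17875646-17875895, minus strand: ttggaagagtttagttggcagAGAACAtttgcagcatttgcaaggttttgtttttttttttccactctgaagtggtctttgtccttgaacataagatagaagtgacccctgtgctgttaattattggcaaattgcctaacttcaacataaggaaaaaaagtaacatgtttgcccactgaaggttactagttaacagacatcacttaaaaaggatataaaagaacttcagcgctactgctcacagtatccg
Cyp2c11, chr1:246174966-246175215, plus strand: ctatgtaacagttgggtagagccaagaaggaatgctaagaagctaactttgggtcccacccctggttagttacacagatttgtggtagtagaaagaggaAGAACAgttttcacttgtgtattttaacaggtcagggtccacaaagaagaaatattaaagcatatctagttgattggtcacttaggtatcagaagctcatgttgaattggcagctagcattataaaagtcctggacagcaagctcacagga
Ces1f, chr19:29969383-29969632, plus strand: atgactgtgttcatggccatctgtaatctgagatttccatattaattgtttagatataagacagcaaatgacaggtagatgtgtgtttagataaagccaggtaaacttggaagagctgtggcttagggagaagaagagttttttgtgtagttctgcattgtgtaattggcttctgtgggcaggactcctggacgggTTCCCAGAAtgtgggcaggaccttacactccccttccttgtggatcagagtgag

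The hexamer stands 229 to 224 bases before the start of Afp and 151 to 146 before that of Cyp2c11, and the STAT element 54 to 46 bases before that of Ces1f. RefSeq entries were found for 32 of the 48 lean-lower and 50 of the 61 lean-higher genes. AGAACA occurred in 5 of 32 (15.6%) and 10 of 50 (20%), against 11.4% of 8138 promoters of named genes tested and 17.1% of 27457 promoters of the same length in all. TTCNNNGAA occurred in 4 of 32 (12.5%) and 3 of 50 (6%), against 6.21% and 7.52%. The 2 elements do not overlap in the promoters shown. A match is a description of letters in this window only.

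Leptin signalling genes had few differences beyond their errors. However, Lepr and Socs3 had mean log2 levels of 6.92 and 6.34, near background, where small ratios are least certain. Lepr was at -0.19, -0.018, -0.042 and -0.16 in lean and at 0.023, 0.011, -0.78 and -0.037 in obese rats, where obese replicate 3 alone stood far from 0. Stat3 was at 0.44, 0.20, 0.21 and 0.28 in lean and at 0.29, 0.43, 0.15 and 0.11 in obese rats, above 0 on all 8 arrays, although another Stat3 probe gave -0.016 and -0.19 for the means. The leptin-induced inhibitor Socs3 had means of 0.11 ± 0.10 and 0.12 ± 0.051 (SD), and the insulin receptor substrate Irs2 1.01 ± 0.97 and 0.57 ± 0.17, with 3 other Irs2 probes whose means all lay between 0.00032 and 0.082. Differences of the 18 leptin and STAT3 genes measured ran from -0.44 (Irs2) to 0.44 (Pias3, an inhibitor of STAT3), with a median of 0.0039, which was 0.39 with median centring and below 0 under 9 of the 20 other settings. None passed, and 1 was higher and 0 lower in obese rats at an unadjusted p under 0.05.

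Growth hormone signalling held larger differences. Socs2, the STAT5-induced brake on growth hormone signalling, was at 1.32, 0.66, 0.91 and -0.10 in lean rats and at 0.071, -0.22, -0.33 and -0.61 in obese rats. The lean mean was 1.62-fold higher with TU and the obese mean 1.21-fold lower, a difference of -0.97 ± 0.27 (SE, limma adjusted p = 0.423, 0.138 to 0.739 under other settings), with lean replicate 4 overlapping the obese arrays. The repressor Bcl6, which counters STAT5 at female-biased genes, ran the other way, at -0.61, -1.60, -0.97 and 0.18 in lean rats and at 0.90, 0.81, -0.35 and 0.48 in obese rats. Another probe of Bcl6 gave means of -0.39 and -0.068. Onecut1 (HNF6), a liver factor regulated by growth hormone, was at 2.17, 0.53, 1.68 and -0.12 in lean rats and at -0.96, -0.15, 0.27 and -0.25 in obese rats. The receptor Ghr had a difference of -0.22 ± 0.089, which was 0.35 with median centring and whose other probes gave 0.33 and 0.036. The effector Igf1 had one of 0.29 ± 0.15, with 0.23, 0.021 and 0.062 from other probes. Stat5b had one of -0.091 ± 0.22, which was above 0 with median centring (0.17) and without obese replicate 2 (0.15). Its near relative Stat5a, named after its values were seen, had means of -0.76 in lean and -0.061 in obese rats, a difference of 0.70 ± 0.18 (SE, limma adjusted p = 0.412), the smallest adjusted p of this list. Over the 15 genes measured the median difference was -0.091 (0.23 with median centring), 2 were higher and 4 lower in obese rats at an unadjusted p under 0.05, and none passed.

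Among enzymes of androgen metabolism, Srd5a1, which reduces testosterone to dihydrotestosterone, was at -1.06, -1.03, -0.55 and -0.55 in lean and at -0.85, -1.44, -0.33 and -0.45 in obese rats, below 0 on all 8 arrays. The difference of Srd5a1 was 0.030 ± 0.24 (SE), with -0.20 from another Srd5a1 probe. Ugt2b, which conjugates androgens, was at 0.41, 0.57, 0.34 and 0.48 in lean and at 0.78, 0.63, 0.51 and 0.70 in obese rats, above 0 throughout, and its other probe differed by 0.040. Among 38 steroid enzymes and receptors 5 were higher and 5 lower in obese rats at an unadjusted p under 0.05, from the androgen-synthesis enzyme Cyp17a1 (-0.45 ± 0.15, 0.011 with median centring) to the sulfotransferase Sult2a1 (0.74 ± 0.32), and the median difference was 0.015.

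Sex-biased liver genes went in both directions. The 19 male-biased genes had a median response of 0.13 in lean and 0.090 in obese rats. Means of opposite sign were found in 9 of the 19, where 39.1% of all named genes had them. At an unadjusted p under 0.05, 1 was higher and 3 were lower in obese rats. Nat8, an acetyltransferase, was at -0.041, -0.78, -0.33 and -0.65 in lean rats and at 0.80, 0.70, 0.46 and -0.16 in obese rats. Cyp2a2, a male-specific cytochrome, was at 0.047, 0.19, 0.21 and -0.075 in lean rats and at -0.63, -1.50, -0.22 and -0.18 in obese rats. The 16 female-biased genes had medians of -0.054 and -0.037, with 2 higher and 1 lower, and the sulfotransferase Sult2a2 ranged from -0.14 to 2.02 over the obese arrays against -0.055 to 0.18 over the lean ones. Its log2 level in lean rats was near background, 6.14 with vehicle and 6.24 with TU, against 8.97 and 9.91 in obese rats. The narrow lean range is therefore no measure of a missing response.

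**Figure D4:**
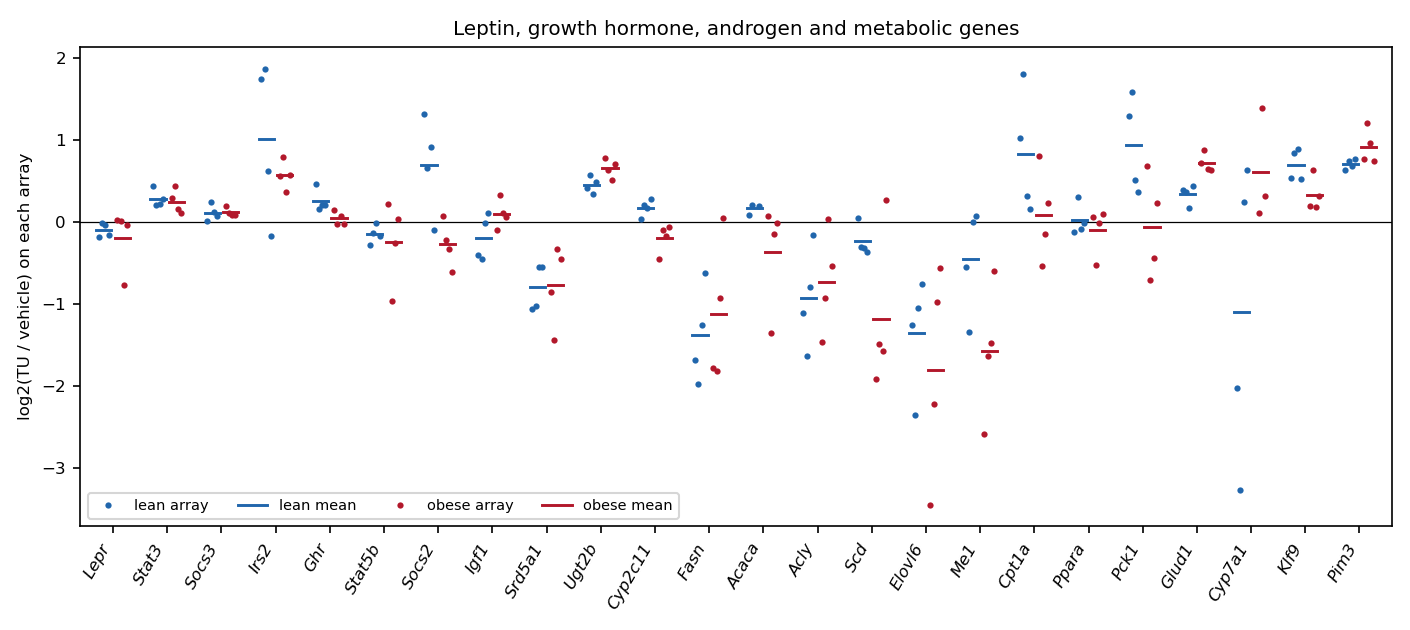
Response to TU on each array, as log2(TU / vehicle), for genes of leptin, growth hormone, androgen, lipid and glucose biology, chosen by name. Points are single arrays of lean (blue) and obese (red) rats and bars are means. Srd5a1 lies below and Pim3, Ugt2b and Glud1 above 0 in both genotypes, and Socs2 and Pck1 have lean means above and obese means below 0.

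Glucose metabolism genes went in both directions. Pck1, the rate-limiting enzyme of gluconeogenesis, was at 1.29, 1.58, 0.50 and 0.36 in lean rats and at 0.68, -0.71, -0.44 and 0.22 in obese rats. Its difference was -0.995 ± 0.36, and -0.84 from another probe. Glud1, the mitochondrial glutamate dehydrogenase, was at 0.39, 0.36, 0.17 and 0.43 in lean rats and at 0.71, 0.88, 0.65 and 0.63 in obese rats, above 0 on every array and higher in obese rats without overlap. Genotypes that did not overlap were found for 1464 features (6.08%). Its other probes had means below 0 in both genotypes, -0.14 and -0.16 for one and -0.069 and -0.19 for the other, with differences of -0.020 and -0.12. Of 31 glucose genes 4 were higher and 4 lower in obese rats at an unadjusted p under 0.05, with a median difference of 0.017.

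Responses of fat synthesis genes were mostly below 0 in both genotypes. Fasn, the fatty acid synthase, was at -1.69, -1.97, -1.26 and -0.62 in lean rats and at -1.78, -1.82, -0.93 and 0.049 in obese rats, so the genotypes overlapped, and its difference of 0.26 ± 0.43 was -0.13 without obese replicate 4 and 0.43 from its other probe. Acly, which supplies acetyl-CoA, had means of -0.92 ± 0.62 and -0.73 ± 0.63 (SD), and the elongase Elovl6 of -1.35 ± 0.70 and -1.80 ± 1.30, with a difference that was above 0 with median centring (0.060) and without obese replicate 1 (0.10) and was -0.89 from its other probe. The desaturase Scd stood near 0 in lean rats (0.046, -0.31, -0.32 and -0.36) and was low on 3 obese arrays (-1.91, -1.50, -1.57 and 0.26). Its relative Scd2 was at 0.23, -0.10, 0.26 and -0.12 in lean and at -1.43, -2.10, -1.26 and 0.090 in obese rats, although 2 other Scd2 probes differed by 0.48 and -0.081. Me1, a source of NADPH, was at -0.55, -1.34, -0.0047 and 0.066 in lean and at -2.58, -1.64, -1.48 and -0.60 in obese rats, and its other probe differed by -0.96. On obese replicate 4 all of Fasn, Scd, Scd2 and Me1 lay nearer 0 than on the other obese arrays. The median response of 29 lipogenic genes was -0.23 in lean and -0.55 in obese rats, and 4 were lower and 0 higher in obese rats at an unadjusted p under 0.05. Obese replicate 2 had the lowest list median (-1.32), with -0.52 to -0.11 for the remaining obese arrays and -0.33 to -0.068 for the lean ones. Its median difference of -0.26 was 0.11 with median centring and -0.088 without obese replicate 2.

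Fat burning genes had list medians above 0 in both genotypes. The median of 43 genes, PPAR alpha targets and enzymes of fatty acid oxidation, was 0.23 in lean and 0.11 in obese rats, and 1 was higher and 4 lower in obese rats at an unadjusted p under 0.05. Angptl4, a PPAR alpha target that inhibits lipoprotein lipase, was at 1.66, 1.65, 0.84 and 0.035 in lean rats and at 0.44, -0.76, -1.11 and 0.11 in obese rats. Cpt1a, which admits fatty acids to mitochondria, was at 1.02, 1.81, 0.32 and 0.15 in lean rats and at 0.80, -0.54, -0.15 and 0.23 in obese rats. The binding protein Fabp1 ran the other way (-0.10, -0.41, 0.12 and -0.042 against 0.40, 0.86, 0.72 and 0.068), with 0.98 from another probe. The median difference of -0.12 was above 0 with median centring (0.30) and without lean replicate 2 (0.0044).

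Several sterol and bile acid genes had higher responses in obese rats, with wide spread. The sterol exporter Abcg5 was at -1.41, -0.74, 0.27 and -0.77 in lean rats and at 1.01, 1.70, 1.15 and 0.23 in obese rats, where only lean replicate 3 reached the obese range. Its difference of 1.68 ± 0.38 (SE) did not pass (limma adjusted p = 0.395, 0.0494 to 0.739 under other settings), and its vehicle level was 10.43 ± 0.36 in lean and 6.48 ± 0.45 in obese rats. Hmgcs1, an early enzyme of cholesterol synthesis, was at -1.14, 0.039, -0.21 and 0.21 in lean rats and at 1.10, 1.64, 0.85 and -0.092 in obese rats, and its other probe differed by 0.60. Of 24 cholesterol synthesis genes 16 had a difference above 0, 4 at an unadjusted p under 0.05 and none below 0 at that level. Cyp7a1, the rate-limiting enzyme of bile acid synthesis, was at -2.03, -3.27, 0.25 and 0.63 on the lean arrays and at 0.11, 1.39 and 0.31 on the 3 obese arrays with a value. The lean arrays were thus split among themselves. Of 21 bile acid genes 3 were higher and 0 lower at that level. Both list medians were below 0 without lean replicate 1 (-0.037 and -0.0072), against 0.10 and 0.092, and were 0.56 and 0.62 with median centring.

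**Figure D5:**
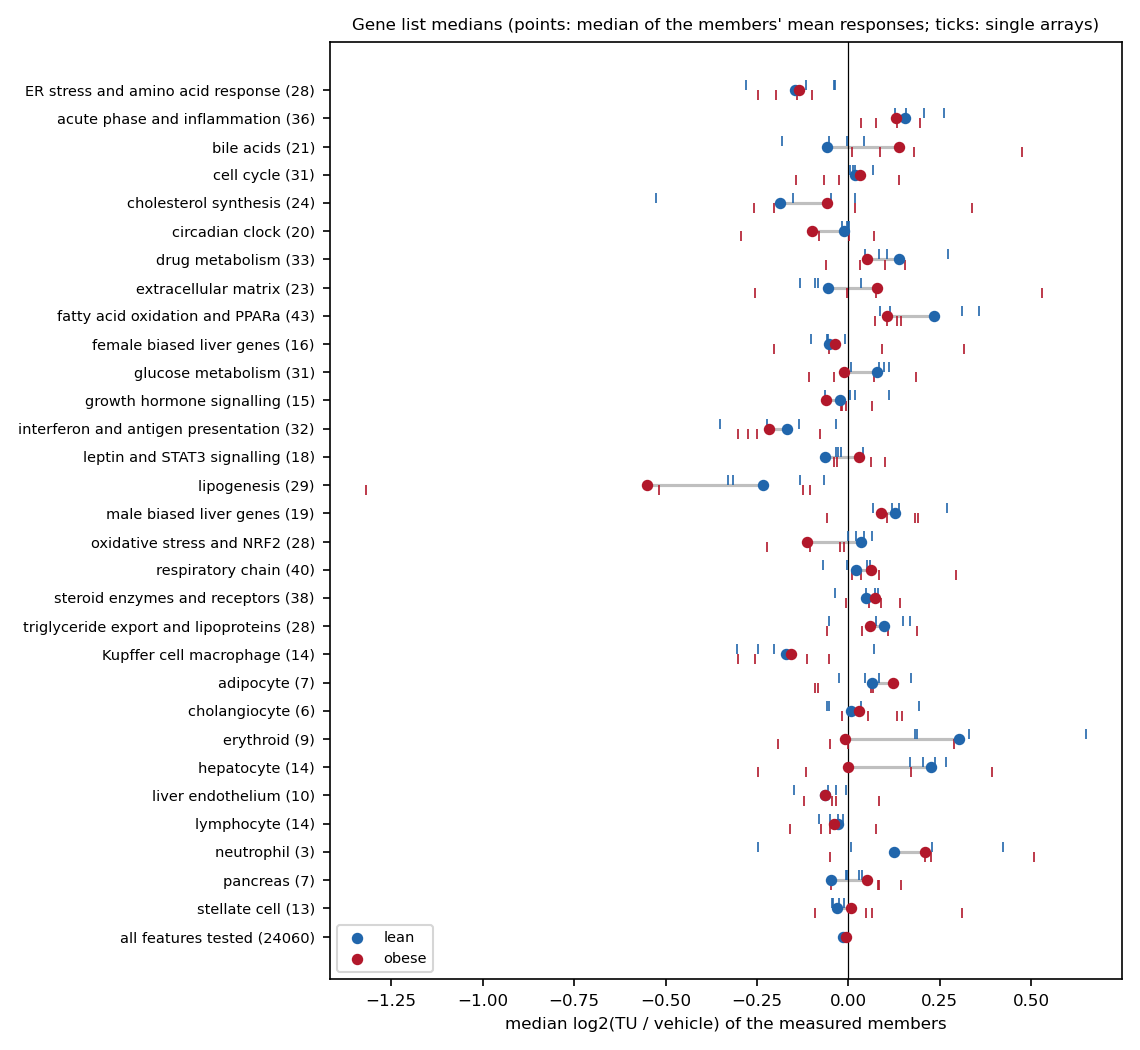
Median response to TU of the measured members of each gene list (their number in parentheses) in lean (blue) and obese (red) rats, as log2(TU / vehicle). Points are medians of the members' mean responses, ticks the medians on single arrays, and the last line gives all 24060 features. Lipogenesis lies lowest in both genotypes, and the erythroid and hepatocyte lists lie above 0 in lean rats and near 0 in obese rats.

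Beside these, the other pathway lists had median differences between -0.14 and 0.079, where all 24060 features had -0.0014, and no member passed. Triglyceride export and lipoprotein genes (28) had a median difference of -0.14 and drug metabolism genes (33) of -0.13, with 3 and 2 higher and 2 and 2 lower at an unadjusted p under 0.05. Oxidative stress genes (28) had -0.11 with 0 higher and 2 lower, and acute phase genes (36) -0.096 with 1 higher and 3 lower. All 4 medians were above 0 with median centring (0.44, 0.29, 0.33 and 0.42). Metallothionein Mt1 of the oxidative stress list was at 1.00, 1.19, 0.77 and 0.26 in lean rats and at 3.36, 2.95, 1.14 and 0.60 in obese rats, above 0 on every array. Nqo1 of that list was a crossing gene with means of 0.045 and -0.084, and Atf6, a sensor of misfolded protein in the stress list, one with -0.19 and 0.10. Respiratory chain genes (40) had a median difference of 0.069 with 5 higher and 0 lower, led by Cox6c at 0.52 ± 0.15 (SE). The acute phase protein Orm1 was at 1.26, 0.90, 0.36 and 0.23 in lean rats and at 0.39, -0.26, -0.0070 and 0.17 in obese rats. The interferon regulator Irf7 was at 0.16, -1.17, -0.25 and -0.28 in lean rats and at -1.68, -1.25, -1.27 and -0.62 in obese rats. The clock gene Per2 was at -1.34, -1.83, -1.21 and -0.69 in lean rats and at -0.89, -0.13, 0.29 and -0.59 in obese rats.

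For extracellular matrix genes (23) 2 were higher and 2 lower, and the collagen Col1a1 was at 3.21 on obese replicate 2 and between -0.36 and 0.53 on the other obese arrays. For the circadian clock (20) 2 were higher and 1 lower, for ER stress (28) 2 and 1, for interferon and antigen presentation (32) 0 and 2, and for the cell cycle (31) 0 and 3. In these 5 lists the median differences were 0.079, -0.0026, -0.028, -0.055 and -0.087. With median centring the median difference was above 0 in every list, pathway or cell type, but the erythroid one. Lists shared some genes, so their counts are not independent.

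Cell type markers were read beside the gene lists, since in bulk liver fewer cells of a type and less RNA per cell cannot be told apart. All 14 hepatocyte markers passed the background filter. Their median response was 0.23 in lean and -0.0011 in obese rats, with lean arrays between 0.17 and 0.27 and obese arrays between -0.25 and 0.39. The median difference of -0.18 was 0.38 with median centring. All features at a mean log2 level of 16 or more had median responses of 0.24 in lean and 0.25 in obese rats. The part of brightness in the hepatocyte medians was not tested. Erythroid markers differed most: 9 of 13 passed the filter, all 9 had a difference below 0, and 6 were lower in obese rats at an unadjusted p under 0.05 where 4.99% of named genes were. Their median response was 0.18 to 0.65 on the lean arrays and -0.19 to 0.29 on the obese ones, and the median difference of -0.30 stayed below 0 under all 20 other settings (-0.82 to -0.21). The beta globin probe Hbb was at 0.51, 0.77, 1.30 and 0.73 in lean rats and at -0.35, -2.62, 0.49 and -0.30 in obese rats. Globin genes have near-identical copies, which this probe may also bind. The log2 of the summed erythroid level in vehicle rats was 14.56 to 15.36 in lean and 15.72 to 16.67 in obese liver, and with TU 16.08 to 16.61 and 16.21 to 16.80. The part of erythroid RNA in any result was not tested.

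Markers of other cell types had smaller median differences. Macrophage markers (14 of 16 measured) had a median response of -0.17 in lean and -0.16 in obese rats, with 0 higher and 0 lower at an unadjusted p under 0.05. Stellate cell (13 of 14), endothelial (10 of 14), cholangiocyte (6 of 10), lymphocyte (14 of 20), neutrophil (3 of 10), adipocyte (7 of 10) and pancreas markers (7 of 12) had median differences between -0.061 and 0.16. In these, 2 stellate and 1 pancreas gene were higher, and 1 endothelial (Tek) and 1 cholangiocyte gene (Onecut1, also a hepatocyte factor) lower, at that level. Tek was not well above background on any obese array. The summed stellate level in vehicle rats was 14.38 to 14.63 in lean and 15.18 to 15.47 in obese liver, and with TU 14.34 to 14.53 and 15.11 to 15.49. The part of these cells in the results was not tested.

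Pim3 and Klf9 had responses of the same sign in both genotypes. With TU RNA in Cy5 on every array, an effect of TU cannot be told apart there from a constant dye bias of the probe. The kinase Pim3, a STAT target that supports growth, was at 0.63, 0.74, 0.68 and 0.77 in lean rats and at 0.77, 1.20, 0.96 and 0.74 in obese rats. The hormone-responsive factor Klf9 was at 0.54, 0.84, 0.89 and 0.52 in lean rats and at 0.19, 0.63, 0.18 and 0.31 in obese rats, a difference of -0.37 ± 0.13 (SE) that was 0.11 with median centring and -0.33 from its other probe. Both were above 0 on all 8 arrays. Acaca, the rate-limiting carboxylase of fatty acid synthesis, had means of 0.16 (3 arrays with a value) and -0.36 ± 0.67, the latter from -1.35 on obese replicate 2 and -0.16 to 0.074 on the others. Ppara, the receptor behind the oxidation genes, had means of 0.018 and -0.10, a difference above 0 with median centring (0.22) and without obese replicate 2 (0.027).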

How the data were processed

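Liver RNA of TU-treated rats (Cy5) and vehicle-treated rats (Cy3) was hybridised together on 8 Agilent rat arrays. Per the file headers the scanner files come from Agilent Feature Extraction 10.7.3.1 and hold median signals and local backgrounds, an intensity scale, with log10 ratios of Cy5 over Cy3. The authors' deposited value table holds log2 ratios of TU over vehicle, with no normalization named by labels or headers. Its columns had slopes of 3.33 to 3.38 on the scanner log10 ratios, had medians of 0.0459 to 0.139, and served as an alternative. The correlation with those ratios ran from r = 0.702 (lean replicate 4) to 0.996 (obese replicate 2), so they are not a plain conversion of the log10 ratios on every array. The deposited ratios nearly repeated the scanner software's processed signals. Opposite signs on every array held for 394 and 390 features, and the median difference was 0.029 with both. These are therefore not separate checks. Every array has 45018 spots, and 58.4% to 69.1% of probes were well above background in Cy3 and 50.4% to 60.6% in Cy5. The number of arrays limits the precision.

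Control spots were left out after background correction (normexp, offset 50), followed by loess within arrays and the mean of a probe's spots. Spots were left out before normexp if they or their local background were flagged as non-uniform, or if the local background was over 2 times the array median. Together these were 62 to 189 spots per array, control spots aside. Local backgrounds entered the rule because very bright ones distorted the fit. This choice was made after results were seen. Fitted over all spots, 1 feature passed. A probe was kept if Cy3 or Cy5 was well above background on 4 or more arrays (26965 probes), and the brightest stood for a gene. Names came from a newer annotation for 16815 probes and an older one for 195, and 24002 had none.

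The difference was fitted with limma 3.58.1 in R 4.3.3 over all 24060 features, with Benjamini-Hochberg adjustment. The fit was tested on simulated data whose added differences were larger than any found in the reported fit. That test does not show how well differences of the size reported would be called. Levels by channel were scaled between arrays (Aquantile). Same-numbered lean and obese arrays correlated with r of -0.12 to 0.078, so the numbers were not taken as pairs. Nothing says that the RNAs came from separate animals, so p-values measure only the spread between these samples. Named genes were up to 15 per direction past the threshold, 10 per direction with opposite signs on every array and the largest smaller mean, a set of central genes given by name, and in each list the extreme members and any with opposite signs on every array. A few genes the rule names are not reported here. The members and lists were chosen with earlier results of these data known. Promoters are RefSeq entries (GRCr8).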

Additional observations from a re-analysis of the deposited data

Results flagged for a closer look

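A single array stood far from the other 3 of its genotype in 13 of 191 groups of 4 checked in 97 named genes, where chance alone flags about 1 in 20. Among obese arrays, replicate 2 did so for Acaca (-1.35, others -0.16 to 0.074), Asgr1 (-0.93, others -0.32 to -0.25), Cyp27a1 (-0.95, others -0.038 to 0.019) and Fcgr2b (0.75, others 0.092 to 0.13). Obese replicate 3 did so for Lepr (-0.78, others -0.037 to 0.023) and obese replicate 1 for Socs3 (0.19, others 0.085 to 0.10). Among lean arrays, replicate 1 did so for Fam117b (0.91, others 0.20 to 0.31), Or9s13 (-1.09, others -0.30 to -0.16), Scd (0.046, others -0.36 to -0.31) and Tm4sf1 (-0.15, others -0.41 to -0.37). Lean replicate 2 stood apart for Lipc (-0.29, others -0.083 to -0.067) and Slc25a30 (0.54, others 0.11 to 0.15), and lean replicate 4 for Slc16a6 (-0.25, others -0.88 to -0.78).

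Every array of one genotype lay on the other side of 0 from every array of the other in 23 named genes, most of them named for that reason. The obese minus lean difference was above 0 for Or9s13 (1.02), Kcnh1 (0.92), Slc16a6 (0.90), Afp (0.84), Prodh (0.80), Tm4sf1 (0.65), Lgalsl (0.63), Slc13a3 (0.59), Psmc6 (0.51), Rpl38 (0.49) and Atf6 (0.29). It was below 0 for Fam117b (-0.79), Slc25a30 (-0.77), Or4f7c (-0.56), Brd2 (-0.52), Mbl1 (-0.48), Cesl1 (-0.44), Bfar (-0.43), Ces1f (-0.42), Vamp8 (-0.41), Cyp2c11 (-0.37), Abhd5 (-0.36) and Nqo1 (-0.13). None of these differences passed the limma test over all features.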

How the results depend on the processing

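No feature was called in the reported fit (2343 at an unadjusted p under 0.05). The count was 781 with median centring (762 higher, 19 lower), 7 with array weights (1 higher, 6 lower, Egr1 among the lower), 2 each with the scanner software's processed signals and with the authors' deposited ratios, 1 with trend and robust settings, and 1 with normexp over all spots, a comparison added after seeing the data. Leaving out 1 array in turn gave 0 to 2 (2 without obese replicate 2, 1 without obese replicate 3). With the replicate number as a block 0 were called (2185 at an unadjusted p under 0.05), and as the numbers do not pair the samples this is no measure of a paired effect. Opposite signs on every array held for 311 features. That count was 1590 with median centring (1403 lean-lower, 187 lean-higher), 488 with no filter (37391 features tested), 438 to 665 with 1 array left out, where fewer arrays must meet the rule, and 40 and 10 when every array had to lie beyond 0.05 or 0.1, thresholds chosen after seeing the data. The cause of the other changes was not tested. Median centring moved the median difference to 0.15, against -0.0042 to 0.029 for the other scalings and backgrounds. Of all features, 12049 had a mean log2 level under 7, near background, where small ratios are least certain.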

Other observations

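Ribosomal protein genes, a list added after seeing the data, had higher responses in obese than in lean rats. Of 74 genes 67 were measured, with a median response of -0.0057 in lean and 0.14 in obese rats. The difference was above 0 in 56 and below 0 in 11, with 23 higher and 1 lower at an unadjusted p under 0.05, where 4.84% and 4.99% of named genes were. The list median was -0.069 to 0.053 on the lean arrays and 0.079 to 0.32 on the obese arrays, the highest on obese replicate 2. The median difference of 0.19 was above 0 under all 20 other settings, from 0.11 to 0.74 (the latter with median centring). Differences ran from -0.26 (Rpl4) to 0.76 (Rpl14). Over all 24060 features 11942 had a difference above 0 and 12118 below. Opposite signs on every array were found in 4 ribosomal genes, where 1.09% of named genes had them. The 4 stood at mean log2 levels of 13.97 to 15.14. The median difference of all features was 0.032 between levels 14 and 15 and 0.12 between 15 and 16. It was 0.0040 between 13 and 14 and -0.0020 at 16 or more. The part of brightness was not tested. No member passed over all features. These genes have near-identical pseudogene copies, so a probe may bind RNA of several loci.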
